A study of Homo sapiens with 24 samples.

Results

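Collagens are the proteins of the extracellular matrix that hold a triple helix, and their genes are named COL, a number for the type, A, and a number for the chain. On the arrays of this study, 40 of 30982 gene names had that form, with 66 probes and 93 spots, and all 40 names were found in the RefSeq gene table. By the structure their products form, 11 were fibrillar, 8 belonged to the basement membrane and 21 to other groups (microfibrils, anchoring fibrils, short-chain networks, fibril-associated and transmembrane collagens). COL29A1, now COL6A5, was not among these names and was not analysed here.

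RNA was labelled as that of U87 MG (U87 below), a human glioblastoma cell line, 24 h after proton therapy (PT) beams, and was hybridized to Agilent 2-colour arrays. In the first pair of configurations, U87 2 Gy and U87 10 Gy, Cy5 carried RNA of cells given 2 or 10 Gy of protons and Cy3 that of untreated cells. In the second pair, Si306 + 2 Gy and Si306 + 10 Gy, Cy5 carried RNA of cells given protons together with 10 µM Si306, a small-molecule inhibitor of SRC family kinases, and Cy3 that of cells given the same dose of protons alone. No array had the dyes swapped, no configuration had Si306 without protons, and all samples were labelled as a single cell line, so that a dye effect and a treatment effect cannot be told apart within an array. The 24 scans, labelled as 6 replicates for each configuration, were repeat scans of 8 arrays, which gives n = 2 arrays for each configuration. Nothing in the labels ties the 2 arrays to separate cultures, and the p-values then measure only the spread between arrays, which may be technical.

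Fibrillar collagens (types I, II, III, V, XI, XXIV and XXVII) assemble into the cables that give tissue its tensile strength, while type IV forms the sheet-like network of the basement membrane, to which types XV and XVIII are attached. Type VI makes beaded microfibrils around cells, type VII the anchoring fibrils under epithelia, and type VIII a short-chain network made by endothelial and mesenchymal cells. Chains are modified and folded in the endoplasmic reticulum, trimmed after secretion and cross-linked by lysyl oxidases. In normal brain, collagen is largely restricted to vessels and meninges, and glioblastoma cells in culture make several fibrillar and basement membrane chains.

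A run of at least 6 glycine codons of the coding repeat Gly-X-Y was found in 3 of the 66 probes, and shorter runs were not counted. In these 60-base probes, given 5′ to 3′ with positions on build hg17 as in the scanner tables, the capitals mark the glycine codons, 6 in each. They are shown because the repeat is what makes a collagen, although each of these genes was read more brightly by a probe outside it.
COL3A1, chr2:189694582-189695626, plus strand, across an intron: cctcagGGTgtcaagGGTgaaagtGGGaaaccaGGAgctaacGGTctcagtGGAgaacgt
COL4A1, chr13:109624341-109624847, minus strand, across an intron: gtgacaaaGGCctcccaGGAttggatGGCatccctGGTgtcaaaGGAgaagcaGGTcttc
COL4A5, chrX:107675633-107675692, plus strand: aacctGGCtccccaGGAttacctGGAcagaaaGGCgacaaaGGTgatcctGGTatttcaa
The control RNA gave no signal above background on any array with the COL3A1 repeat probe, whose mean log2 ratio was between 0.05 and 0.17 in the 4 configurations. For the COL4A1 and COL4A5 repeat probes, both dim, the mean log2 ratio lay between -0.08 and 0.04. Each gene is represented below by its probe of highest mean intensity.

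The proton arrays and the Si306 arrays lay on 2 slides that differed far more than the treatments did, although RNA of cells given protons alone was on both (in Cy5 on the first and in Cy3 on the second). Over 28183 probes, the mean log2 intensities of 2 arrays of a slide correlated at 0.996 or more, and those of arrays of different slides at 0.875 to 0.880. Of 41000 probes, 982 were well above background in all channels of the proton slide and in none of the Si306 slide, and 716 the reverse. Among the markers expected in U87, VIM, CD44, NES and GFAP were above background in all channels of both slides. VIM differed little between them, with mean log2 levels of 17.1 on the proton slide and 17.0 on the Si306 slide, while CD44 was lower on the Si306 slide (15.2 and 13.0) and NES (9.03 and 10.2) and GFAP (6.79 and 8.57) were higher. CHI3L1 had a mean log2 level of 12.7 on the proton slide and 6.11, at background, on the Si306 slide, OLIG2 was not above background on any channel of the Si306 slide and SOX2 on none of the proton slide. S100B was above background in 0 and 1 channels. Of 13 epithelial genes, a list chosen after these values were seen, 7 were over 2-fold higher on the Si306 slide and none over 2-fold lower, with a summed linear level of 1917 to 2246 per channel on the proton slide and 153075 to 182050 on the Si306 slide. Keratin 19 had log2 levels of 7.41 and 16.7, and CDH1, the defining epithelial cadherin, and ELF3 were not above background on either slide. Of 4 endothelial markers, with a summed level of 304 to 328 on the proton slide and 810 to 975 on the Si306 slide, PECAM1 was above background in all channels of the latter and none of the former, and CDH5 in none of the latter. Of 4 leukocyte markers, 0 were over 2-fold apart between the slides. CSF1R (10.9 and 10.1) and CD14 (7.25 and 7.48) were above background in all channels of both, and PTPRC in none. The part of the slide differences in the results was not tested. The U87, epithelial and endothelial markers go against the shared cell line label, and whether the RNA of the Si306 slide came from U87 cells, as labelled, is in doubt. Each Si306 value below is that of the labelled cells. The arrays of the Si306 slide are called by their labels. RNA labelled as that of cells given protons alone differed between the slides as well, and there slide and dye cannot be told apart. Means of the Si306 slide hold RNA with and without Si306. Each log2 ratio below, by contrast, compares 2 RNAs on 1 array.

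Collagen levels differed between the slides. Of the 32 tested collagens, 18 (56.2%) had mean levels over 2-fold apart, against 26.7% of all genes, and the median size of the log2 difference was 1.22 against 0.51. Of these, 11 were higher on the Si306 slide and 7 on the proton slide. COL18A1, whose product carries the endostatin fragment, stood at a log2 level of 6.27 on the proton slide, where 1 of 8 channels was above background, and at 15.0 on the Si306 slide. This holds for its brighter probe, and a second was above background in all arrays of both slides. COL4A2 stood at 9.68 and 14.6, COL4A1 at 7.22 and 10.3, and COL3A1 at 6.31 and 10.3. The opposite was seen for COL1A2, with 13.2 on the proton slide and 9.96 on the Si306 slide, for COL6A2 with 10.2 and 7.21, and for COL1A1 with 8.54 and 6.82. The slide means were under 2-fold apart for COL5A1, with 12.1 and 12.2, and for COL5A2, with 10.4 (channels from 9.96 to 10.6) and 11.0 (from 10.5 to 11.4). RNA of cells given 2 Gy alone was in Cy5 on the proton slide and in Cy3 on the Si306 slide. In it COL18A1 was at 6.30 and 6.22, then at 15.0 and 15.0. COL4A2 was at 9.77 and 9.88, then 14.8 and 14.8, and COL1A2 at 13.1 and 13.0, then 9.59 and 9.46. These levels are described without a test, as each slide is 1 unit. In such bulk RNA, fewer cells of a kind and less RNA per cell cannot be told apart.

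**Figure D1:**
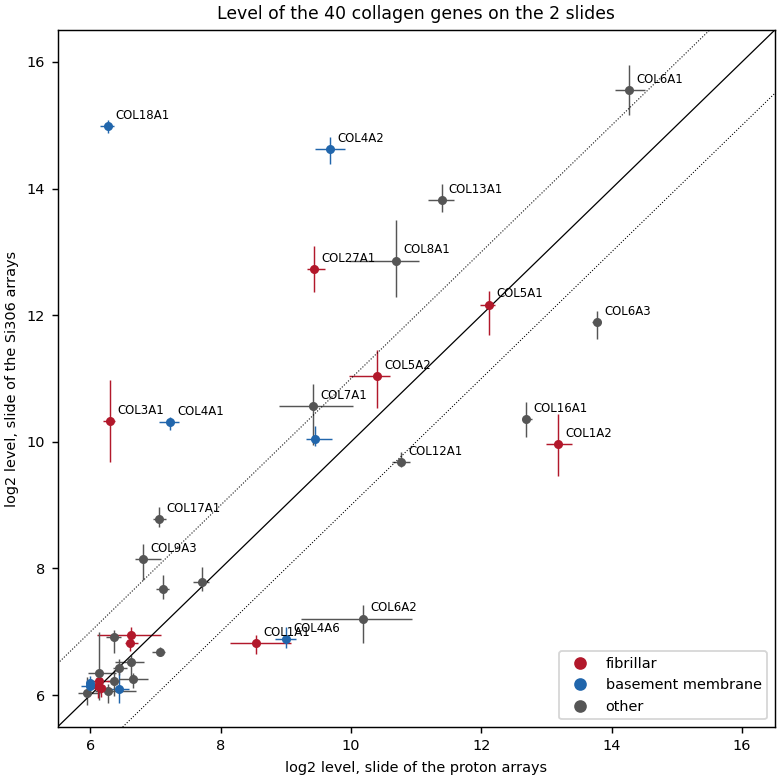
Mean log2 level of the 40 collagen genes on the slide of the proton arrays (x axis) and on that of the Si306 arrays (y axis), with bars from the lowest to the highest of the 8 channels of a slide. The solid line marks equal levels and the dotted lines a 2-fold difference. COL18A1, COL4A2, COL4A1 and COL3A1 lie far above the line, and COL1A2, COL6A2, COL6A3 and COL16A1 below it.

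With loess normalization within each array and limma's test of each mean log2 ratio against 0, adjusted over all gene names by Benjamini-Hochberg, 8 collagens were too dim to be tested: COL2A1, COL5A3 and COL24A1 among the fibrillar chains, COL4A3 and COL4A4 of the basement membrane, and COL19A1, COL22A1 and COL25A1. The other 32 passed the filter, which asks for a signal well above background in either channel on the arrays of at least 1 configuration. In U87 2 Gy, 19 of them passed an adjusted p of 0.05 (59.4%), against a background of 57.2% of all genes; 11 rose, where 32.2% of all genes rose, and 8 fell, where 25% fell. In U87 10 Gy, 15 passed (46.9%) against 57.5%, and 12 rose (background 31.2%) and 3 fell (background 26.3%). With Si306 + 2 Gy, 24 passed (75%) against 66.5%, and 12 rose (background 38.6%) and 12 fell (background 27.9%). With Si306 + 10 Gy, 23 passed (71.9%) against 62.4%, and 15 rose (background 35.2%) and 8 fell (background 27.2%). These counts hold members at background: of the collagens above background in both channels, 10 rose and 7 fell of 24 in U87 2 Gy, 12 and 2 of 25 in U87 10 Gy, 9 and 11 of 25 with Si306 + 2 Gy, and 12 and 8 of 26 with Si306 + 10 Gy. The 3 above background in neither channel with Si306 + 10 Gy, COL15A1, COL21A1 and COL23A1, were all counted as rises. The share that fell in U87 10 Gy was 9.38%, under that of all genes, and with Si306 + 2 Gy it was 37.5%, above it. The median size of the log2 fold change of the collagens was 0.13, 0.09, 0.21 and 0.18 in the 4 configurations in that order, against 0.12, 0.13, 0.16 and 0.14 for all genes.

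Falls among bright collagens depended on the scaling. When the median of each array's log ratios was set to 0 without loess, the median of all genes moved from 0.02, 0.02, 0.04 and 0.03 to 0.27, 0.23, 0.44 and 0.26. Read against 0, the sign turned for 6 of the 8 falls in U87 2 Gy, 1 of the 3 in U87 10 Gy, 7 of the 12 with Si306 + 2 Gy and 7 of the 8 with Si306 + 10 Gy. Read against the median of all genes, it turned for 3, 0, 4 and 7 of them. The calls, read against 0, then split into 19 rises and 10 falls with Si306 + 2 Gy and 21 and 3 with Si306 + 10 Gy, in place of 12 and 12 and of 15 and 8. Of the rises, read against the median of all genes, 2 of 11 and 1 of 12 turned under protons and 4 of 12 and 5 of 15 with Si306. These were COL15A1 and COL17A1 under protons and COL4A6, COL9A2, COL11A1, COL15A1, COL20A1, COL21A1 and COL23A1 with Si306. Of all genes, 89.7% passed with Si306 + 2 Gy and 81.2% with Si306 + 10 Gy under that scaling. Falls of named members are therefore given below with the value under median centring, and each such value is the difference from the median of all genes under that scaling. Without loess, bright probes tended to move up and dim ones down. A kept sign is therefore no check of a fall at a dim probe or of a rise at a bright one.

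**Figure D2:**
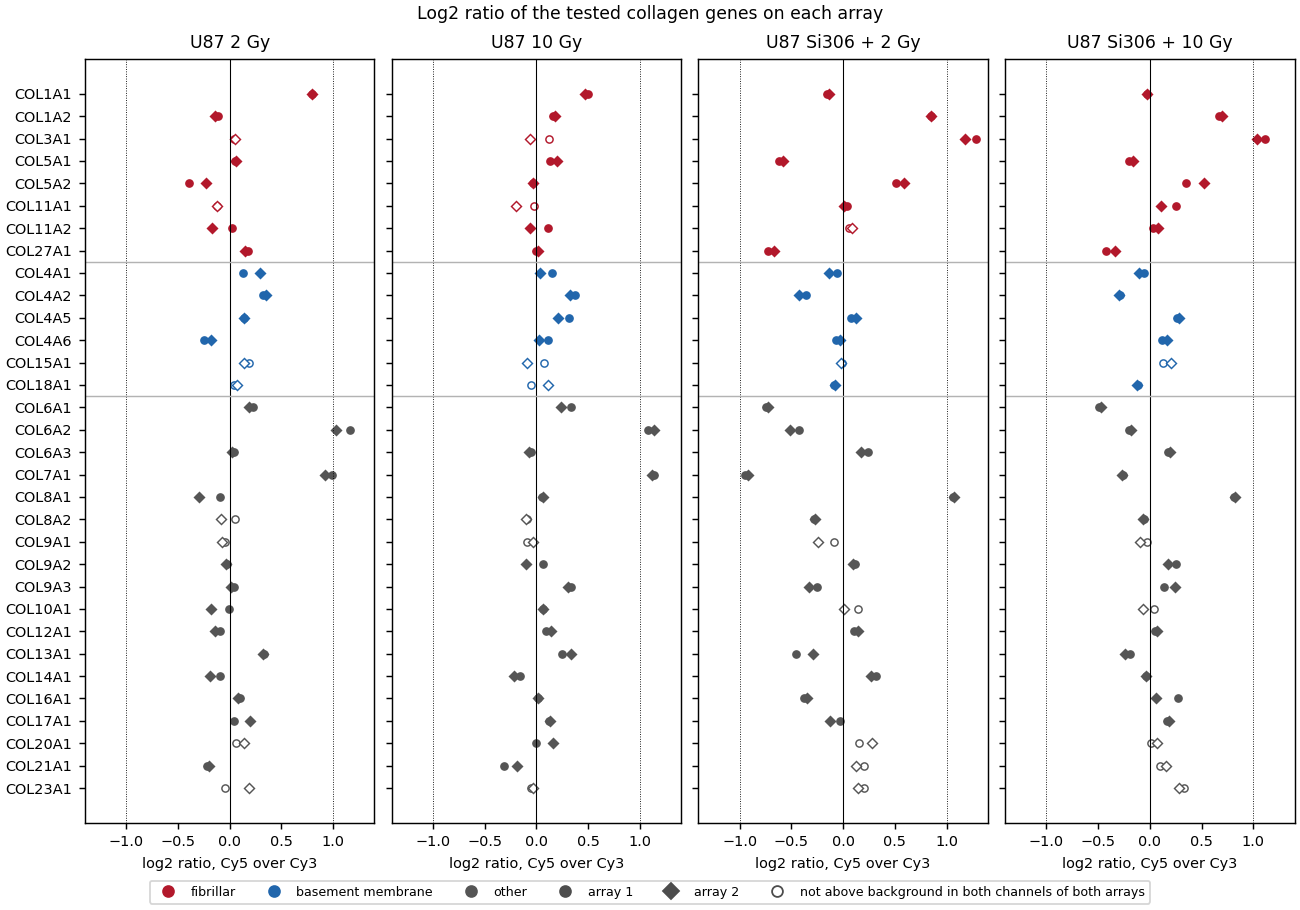
Log2 ratio of Cy5 over Cy3 (x axis) of the 32 tested collagens (y axis) on array 1 (circles) and array 2 (diamonds) of each configuration, coloured by class, with open symbols where a channel of an array was not above background. The dotted lines mark a 2-fold change. COL6A2 and COL7A1 lie at or near the upper line under protons, and COL3A1 and COL8A1 with Si306, with both arrays close together.

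At least a 2-fold change was reached by 1 collagen in U87 2 Gy, COL6A2, where 0.727% of all genes reached it. In U87 10 Gy it was reached by COL6A2 and COL7A1 (background 0.967%), with Si306 + 2 Gy by COL3A1 and COL8A1 (background 0.727%), and with Si306 + 10 Gy by COL3A1 alone (background 0.372%). Every one of these was a rise, and with loess all were at 2-fold or more without any single array. With the scanner software's own ratio, COL6A2 and COL7A1 also fell by 2-fold with Si306 + 2 Gy (both -1.02). The counts are small, and the probe and the scaling mattered for COL6A2, as given below.

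Among the fibrillar chains, COL1A1, the alpha 1 chain of type I collagen, was higher in the Cy5 RNA of proton-treated cells than in the untreated control. Its log2 ratio was 0.80 and 0.80 on the 2 arrays of U87 2 Gy (0.80 ± 0.03 SE, n = 2, adjusted p = 7.98e-09, 1.74-fold) and 0.50 and 0.47 on those of U87 10 Gy (0.49 ± 0.03, adjusted p = 2.12e-07). The arrays of the lower dose were both above those of the higher dose, and the difference between the doses was -0.31 ± 0.04 (adjusted p = 0.000713). Its partner COL1A2, the alpha 2 chain that joins 2 alpha 1 chains in the type I molecule, did not follow. COL1A2 was at -0.12 and -0.14 in U87 2 Gy and at 0.17 and 0.18 in U87 10 Gy, and its fall in U87 2 Gy (-0.13 ± 0.03, adjusted p = 0.00389) turned to 0.26 under median centring. The second COL1A2 probe was at 0.04 and -0.15, opposite in sign to the first in both, so that no proton effect on COL1A2 was settled.

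For the remaining fibrillar chains, proton values depended on the probe or were small. COL5A2, a chain of the type V collagen that starts and thins fibrils, had ratios of -0.39 and -0.23 in U87 2 Gy. In U87 10 Gy it was at -0.03 and -0.03. The fall in U87 2 Gy was -0.02 under median centring. A second COL5A2 probe gave means of 0.25 and 0.50. The dimmest COL5A2 probe, above background in all channels of the proton slide, gave means of -0.03 and -0.03. COL5A1, the partner of COL5A2, had 0.06 and 0.06 in U87 2 Gy and 0.13 and 0.20 in U87 10 Gy. Only the latter passed the test (adjusted p = 0.00148). A second COL5A1 probe, above background in all channels, gave means of 0.35 and 0.40. COL27A1, a fibrillar chain of cartilage and other tissues, rose by 0.16 in U87 2 Gy (adjusted p = 0.002) and was at 0.01 in U87 10 Gy. The control RNA of COL3A1 was not above background on any array of the proton slide, and no ratio of it is read there. COL11A1 and COL11A2, partners in type XI collagen, stayed between -0.20 and 0.12 on every proton array, and COL11A1 alone passed the test, in U87 2 Gy (-0.12, adjusted p = 0.0432, and -0.60 under median centring), where each channel was above background on 1 of the 2 arrays.

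With Si306 the order of the fibrillar chains was another. COL3A1, which encodes the type III collagen of vessel walls and healing tissue, had log2 ratios of 1.29 and 1.17 on the 2 arrays labelled Si306 + 2 Gy (1.23 ± 0.05, n = 2, adjusted p = 6.91e-09, 2.35-fold) and 1.11 and 1.04 on the 2 labelled Si306 + 10 Gy (1.08 ± 0.05, adjusted p = 2.72e-08, 2.11-fold). Both channels were above background on all 4 arrays, and the difference between the doses (-0.16 ± 0.07, adjusted p = 0.112) did not pass the test. COL1A2 had 0.85 and 0.85, then 0.67 and 0.70, with means of 0.85 ± 0.03 (adjusted p = 5.16e-09, 1.80-fold) and 0.68 ± 0.03 (adjusted p = 3.47e-08, 1.61-fold). Its second, dimmer probe gave 0.45 and 0.09 at the 2 doses, and the rise at 10 Gy was thus carried by the brighter probe. COL5A2 had 0.51 and 0.59, then 0.35 and 0.52, with means of 0.55 ± 0.05 (adjusted p = 2.42e-06) and 0.44 ± 0.05 (adjusted p = 1.71e-05). A second COL5A2 probe gave 0.39 and 0.28 but its control RNA was not above background. The dimmest COL5A2 probe gave -0.12 and -0.08, with neither channel above background on any array of the Si306 slide. The rise of COL5A2 was thus carried by its brightest probe. The 4 arrays all lay above 0 for COL3A1, COL1A2 and COL5A2, and each stayed a rise under median centring.

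The probes that carried these rises, with that of COL8A1 described below, are given with G and C in capitals, since the ratio of an array probe can move with its base composition. None holds such a run of glycine codons, and each holds at least 1 frame without a stop codon.
COL3A1, chr2:189700577-189700918, plus strand, across an intron: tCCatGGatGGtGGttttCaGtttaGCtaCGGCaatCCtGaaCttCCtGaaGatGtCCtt
COL1A2, chr7:93703294-93703353, plus strand: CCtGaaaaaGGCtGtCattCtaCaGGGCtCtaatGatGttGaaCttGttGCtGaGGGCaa
COL5A2, chr2:189724357-189724416, minus strand: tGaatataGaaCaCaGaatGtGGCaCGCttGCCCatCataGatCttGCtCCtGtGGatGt
COL8A1, chr3:100997455-100997514, plus strand: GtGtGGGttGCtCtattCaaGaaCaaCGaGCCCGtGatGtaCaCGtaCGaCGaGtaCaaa
The first 3 hold 27 G or C of 60 and that of COL8A1 29, which is not GC-rich.

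The partner chains did not rise with them. COL1A1 was at -0.15 and -0.13 with Si306 + 2 Gy (-0.14 ± 0.03, adjusted p = 0.00164, and -0.79 under median centring) and at -0.02 and -0.02 with Si306 + 10 Gy (adjusted p = 0.512). With these probes the alpha 2 transcript of type I collagen was raised and the alpha 1 transcript at or under the control. COL1A1 was dim on this slide, with log2 levels of 6.64 to 6.94 against 9.46 to 10.4 for COL1A2, so the 2 ratios were not read at like signal. COL5A1 fell by 0.60 with Si306 + 2 Gy (arrays at -0.62 and -0.58, adjusted p = 8.41e-08) and by 0.18 with Si306 + 10 Gy (adjusted p = 0.000729), but it stood at -0.05 and 0.21 under median centring. The second COL5A1 probe gave -0.50 and -0.25 with loess. COL27A1 fell by 0.70 and 0.38 (adjusted p = 4.03e-08 and 4.02e-06), and stood at -0.08 and 0.04 under median centring. A dimmer COL27A1 probe gave 0.13 and 0.11. COL5A2 exceeded COL5A1, and COL1A2 exceeded COL1A1, under both scalings, while the falls of COL5A1 and COL27A1 rested on the loess step.

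**Figure D3:**
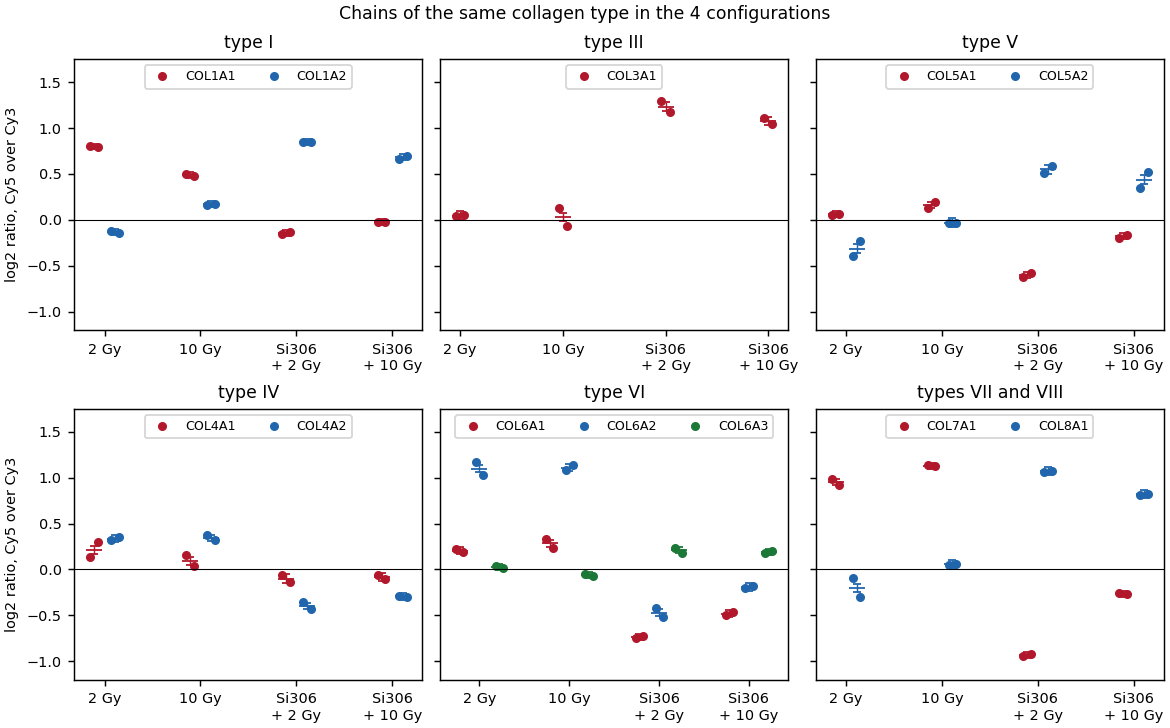
Log2 ratio of Cy5 over Cy3 (y axis) for chains that form the same collagen type, and for COL7A1 and COL8A1, in the 4 configurations (x axis). Points are the 2 arrays, and the horizontal marks with bars are the means ± SE of the limma fit. COL1A2 and COL5A2 lie above COL1A1 and COL5A1 with Si306, while COL1A1 lies above COL1A2 under protons.

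The basement membrane chains COL4A1 and COL4A2, which are transcribed from a shared promoter and form the common type IV molecule together, shifted less. COL4A2 was at 0.32 and 0.35 in U87 2 Gy (0.34 ± 0.03, adjusted p = 7.75e-06, 1.26-fold) and at 0.37 and 0.32 in U87 10 Gy (0.35 ± 0.03, adjusted p = 5.4e-06). COL4A1 was at 0.13 and 0.29 in U87 2 Gy (0.21 ± 0.05, adjusted p = 0.00205), a call that did not hold on array 1 alone. A fit with 1 array in a configuration takes its spread from the other configurations, here and below. In U87 10 Gy COL4A1 was at 0.15 and 0.03 (adjusted p = 0.1). The chains thus had ratios above 0 on all 4 proton arrays, with COL4A2 above COL4A1 on each. With Si306, COL4A2 fell by 0.39 and 0.29 (adjusted p = 1.79e-06 and 1.92e-05), and turned to 0.43 and 0.27 under median centring. COL4A1 was at -0.10 and -0.08, neither past the test.

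Of the other basement membrane chains, COL4A5 rose in all 4 configurations, by 0.14, 0.27, 0.10 and 0.27, although its repeat probe shown above did not. COL4A6, its usual partner, fell by 0.21 in U87 2 Gy (adjusted p = 0.000424), which was -0.03 under median centring, and rose by 0.14 with Si306 + 10 Gy (adjusted p = 0.00558), which turned to -0.12. COL18A1, at background on the proton slide with this probe, was at -0.09 and -0.08 with Si306 + 2 Gy (adjusted p = 0.0796) and at -0.12 and -0.12 with Si306 + 10 Gy (adjusted p = 0.0219). The latter fall turned to 0.50 under median centring and did not hold on either array alone. A second COL18A1 probe, above background on both slides, gave 0.06 and 0.16 under protons and -0.31 and -0.21 with Si306. COL15A1 was not above background on the Si306 slide, and no direction is read there.

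Type VI collagen is a molecule of 3 different chains, encoded by COL6A1, COL6A2 and COL6A3. COL6A2 had the largest proton rise of the collagens at 2 Gy, with 1.16 and 1.03 on the arrays of U87 2 Gy (1.10 ± 0.04, n = 2, adjusted p = 6.07e-09, 2.14-fold) and 1.08 and 1.13 on those of U87 10 Gy (1.11 ± 0.04, adjusted p = 3.65e-09, 2.16-fold). A second probe of COL6A2, 55% G or C against 66.7% of the first, gave 0.32 in U87 10 Gy and had no usable spot in U87 2 Gy. Both probes are given with G and C in capitals, the first with 40 of 60 and the second with 33.
COL6A2, chr21:46376671-46376730, plus strand: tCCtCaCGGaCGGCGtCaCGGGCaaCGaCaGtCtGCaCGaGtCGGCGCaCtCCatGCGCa
COL6A2, second probe, chr21:46373719-46373778, plus strand: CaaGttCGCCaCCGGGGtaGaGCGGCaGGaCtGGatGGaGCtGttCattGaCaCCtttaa
GC-rich probes of all genes had a median log2 ratio of 0.10 in both proton configurations, against 0.02 over all probes. With a curve on GC content removed within each array, COL6A2 was at 0.97 and 0.99, just under 2-fold, and with the mean of both probes it was at 0.72 in U87 10 Gy. COL6A2 rose under each of these settings, and its size depends on the probe.

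Of the partner chains of type VI, COL6A1 rose under protons and COL6A3 passed no test. COL6A1 was at 0.22 and 0.19 in U87 2 Gy (0.20 ± 0.03, adjusted p = 0.000428) and at 0.33 and 0.23 in U87 10 Gy (0.28 ± 0.03, adjusted p = 3.57e-05). A second, dim COL6A1 probe gave 0.32 in U87 2 Gy and 0.50 in U87 10 Gy, where the second COL6A2 probe gave 0.32. The control of that COL6A1 probe was above background on 1 array of each proton configuration. COL6A3 was at 0.04 and 0.02, then -0.05 and -0.07. With Si306 and loess COL6A3 was the highest of the 3 chains and COL6A1 the lowest. COL6A3 rose by 0.21 and 0.19 (adjusted p = 0.000173 and 0.000402), whereas COL6A1, at -0.74 and -0.73 with Si306 + 2 Gy and -0.49 and -0.47 with Si306 + 10 Gy (adjusted p = 2.89e-08 and 6.97e-07), fell with loess but stood at 0.19 and 0.20 under median centring. The dim COL6A1 probe gave -0.07 and 0.01. COL6A2 fell by 0.47 and 0.19 with Si306 (adjusted p = 1.98e-06 and 0.00183), and it was still under 0 with median centring (-0.87 and -0.34). Of the 3 chains, only COL6A2 had a fall that kept its sign under both scalings. Its probe was dim on the Si306 slide, at a mean log2 level of 7.21, against 15.5 for COL6A1. Dim probes tended to move down without loess, so the kept sign is no check of this fall.

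COL7A1, which encodes type VII collagen, passed the test in all 4 configurations. It was at 0.99 and 0.92 in U87 2 Gy (0.95 ± 0.03, n = 2, adjusted p = 3.54e-09, 1.94-fold) and at 1.13 and 1.12 in U87 10 Gy (1.13 ± 0.03, adjusted p = 5.95e-10, 2.18-fold). With Si306 + 2 Gy it was at -0.95 and -0.92 (-0.93 ± 0.03, adjusted p = 3.75e-09, 1.91-fold lower), the largest fall of any collagen with loess. Under median centring it was at -0.54, above COL6A2 (-0.87), COL8A2 (-0.83) and COL1A1 (-0.79). With Si306 + 10 Gy COL7A1 was at -0.26 and -0.27 (adjusted p = 3.65e-05), which was 0.03 under median centring. The difference between Si306 + 10 Gy and Si306 + 2 Gy, both with 10 µM Si306, was 0.67 ± 0.05 (adjusted p = 6.16e-06), and it was 0.52 under median centring. COL7A1 has 1 probe on the array, given with G and C in capitals, 33 of 60.
COL7A1, chr3:48577405-48577592, minus strand, across an intron: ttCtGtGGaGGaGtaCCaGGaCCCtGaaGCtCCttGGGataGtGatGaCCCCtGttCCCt

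COL8A1, the alpha 1 chain of the short-chain type VIII collagen, rose with Si306 under both scalings. It was at -0.09 and -0.30 in U87 2 Gy (adjusted p = 0.00279), a fall that turned to 0.10 under median centring and did not hold on array 1 alone. In U87 10 Gy it was at 0.05 and 0.06, where the mean was 0.32 under median centring. With Si306 it was at 1.06 and 1.08 at 2 Gy (1.07 ± 0.04, adjusted p = 1.25e-08, 2.10-fold) and at 0.81 and 0.83 at 10 Gy (0.82 ± 0.04, adjusted p = 1.01e-07, 1.76-fold). COL8A2, the second type VIII chain, fell by 0.28 with Si306 + 2 Gy (adjusted p = 6.2e-05), and was at -0.83 under median centring. In U87 10 Gy it was at -0.09 (adjusted p = 0.047, and -0.64 under median centring), with its control not above background.

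Among the remaining members, mostly fibril-associated and transmembrane collagens, COL14A1 and COL21A1 were named by rule and the others are named after their values were seen. COL21A1 fell by 0.21 in U87 2 Gy and 0.25 in U87 10 Gy (adjusted p = 0.000732 and 0.000189, and -0.68 and -0.575 under median centring) and was not above background on the Si306 slide. COL14A1 fell by 0.14 and 0.19 (adjusted p = 0.0051 and 0.00079), stood at -0.17 and -0.18 under median centring, and rose by 0.29 with Si306 + 2 Gy (adjusted p = 2.6e-05). A second COL14A1 probe gave 0.09 and 0.01 under protons. With Si306 it gave 0.26 at 2 Gy and 0.33 at 10 Gy, where the first had 0.29 and -0.03. COL13A1, a transmembrane collagen, rose by 0.33 and 0.29 under protons (adjusted p = 5.74e-05 and 0.000121), and its second probe gave 0.60 and 0.50. With Si306 it fell by 0.37 and 0.21, but stood at 0.36 and 0.29 under median centring. COL9A3, a chain of cartilage type IX, was at 0.03 in U87 2 Gy and rose by 0.32 in U87 10 Gy (adjusted p = 2.18e-05). COL10A1, a short-chain network collagen, passed no test in any configuration.

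**Figure D4:**
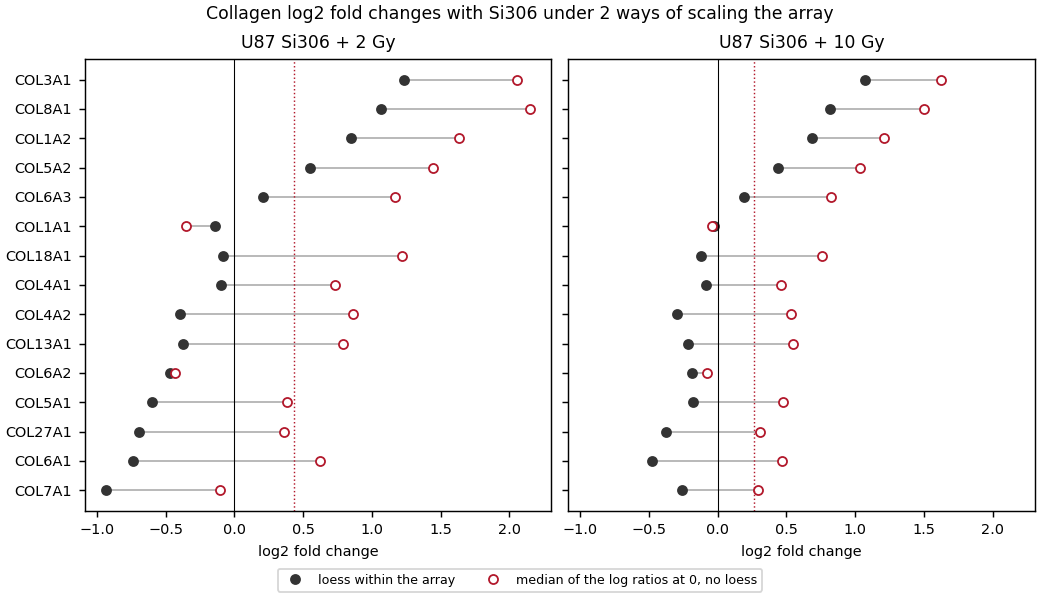
Log2 fold change (x axis) of 15 collagens (y axis) with Si306 at 2 and 10 Gy, after loess within the array (filled) and with the median of each array's log ratios set to 0 and no loess (open). The dotted line marks the median of all genes in the latter, from which the values in the text are counted. COL3A1, COL8A1, COL1A2, COL5A2 and COL6A3 are right of 0 with loess and right of the dotted line without it, while COL6A1, COL13A1 and COL4A2 are left of 0 and right of the dotted line, and COL5A1 and COL27A1 lie near that line at 2 Gy.

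The spots themselves repeat closely. COL1A1, COL1A2 and COL13A1 had a probe printed at 10 places of the array, of which 9 or 10 were usable, and the SD of the log2 ratio over these spots was between 0.04 and 0.09 on every array. This spread is that of the spots of an array and says nothing of the spread between cultures.

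Doses were compared as differences of the log2 ratios in the same fit. Between U87 10 Gy and U87 2 Gy, 9 collagens differed (28.1%) against a background of 21.1%, with 7 higher and 2 lower at 10 Gy. Under median centring, read against 0, 3 differed, 2 higher and 1 lower, against 16.6% of all genes. Without array 2 of U87 10 Gy 5 collagens differed, against 11.6% of all genes. With the scans whose label contradicts their array kept, 0 differed by limma, also 0 at an unadjusted p of 0.05, and of all 22846 genes 0 differed too. The 2 lower ones with loess were COL1A1 and COL27A1, and COL1A2 was the highest of the others, with 0.30 ± 0.04 (adjusted p = 0.000905). The type I chains thus moved in opposite directions with dose on the first probe, but the mean of both COL1A2 probes gave 0.06 (adjusted p = 0.489). With Si306, 14 collagens differed between the doses (43.8%) against a background of 22.7%, 11 higher and 3 lower at 10 Gy. Under median centring, read against 0, 11 were higher and 11 lower, against 60.2% of all genes. Without array 1 or 2 of Si306 + 2 Gy 9 differed, against 11.4% and 14.9% of all genes, and without array 1 or 2 of Si306 + 10 Gy 8 differed, against 12% and 10.9%. COL7A1 led with 0.67, followed by COL16A1 with 0.53 ± 0.06 (adjusted p = 0.000282), COL9A3 with 0.48 ± 0.05 (adjusted p = 0.000154) and COL5A1 with 0.42 ± 0.05 (adjusted p = 0.000192), and all 4 kept their sign under median centring, where they were 0.52, 0.40, 0.52 and 0.22 in that order. For COL5A1 and COL7A1 with loess, the fall at 2 Gy was larger than that at 10 Gy. COL16A1, a fibril-associated collagen, went from -0.37 and -0.35 to 0.27 and 0.06 on its arrays, with the fall at 2 Gy turning to 0.02 under median centring.

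By class, the medians are over members that went both ways, and are given with loess, where all genes had 0.02, 0.02, 0.04 and 0.03. The fibrillar chains had a median log2 fold change of -0.01 in U87 2 Gy, 0.03 in U87 10 Gy, 0.05 with Si306 + 2 Gy and 0.12 with Si306 + 10 Gy. The median of their sizes with Si306 + 2 Gy was 0.58, against 0.16 for all genes, since COL3A1, COL1A2 and COL5A2 rose and COL27A1 and COL5A1 fell in the same configuration, the last 2 with loess. The basement membrane chains had medians of 0.15, 0.08, -0.07 and 0.03, and the other collagens 0.03, 0.06, -0.00 and 0.05. Of the 6 tested basement membrane chains, 4 rose and 1 fell in U87 2 Gy, 2 and 0 in U87 10 Gy, 1 and 1 with Si306 + 2 Gy, and 3 and 2 with Si306 + 10 Gy, where 1 of the 3 was COL15A1, at background. COL15A1 was also 1 of the 4 in U87 2 Gy, where its control was not above background and its treated RNA was on 1 array. Of 8 tested fibrillar chains, 2 rose and 3 fell, then 3 and 0, 3 and 3, and 4 and 2. Of all genes, 57.2%, 57.5%, 66.5% and 62.4% passed in these configurations.

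Collagen chains are modified and folded by a set of enzymes and chaperones, in a list chosen with earlier results known. Of 18 such genes, 8 rose and 7 fell in U87 2 Gy, 9 and 5 in U87 10 Gy, 7 and 6 with Si306 + 2 Gy, and 7 and 7 with Si306 + 10 Gy. Of all genes, 32.2% rose and 25% fell in U87 2 Gy, 31.2% and 26.3% in U87 10 Gy, 38.6% and 27.9% with Si306 + 2 Gy, and 35.2% and 27.2% with Si306 + 10 Gy, which is the background for the next 2 lists too. Of the 3 lysyl hydroxylases, which prepare lysines for cross-links, PLOD1 rose and PLOD2 fell under protons, and PLOD3 was at 0.02 in U87 2 Gy (adjusted p = 0.728) and 0.12 in U87 10 Gy (adjusted p = 0.0321). PLOD1, which acts on helical lysines, was at 1.01 and 1.02 in U87 2 Gy (1.01 ± 0.04, adjusted p = 4.75e-09, 2.02-fold) and at 0.98 and 0.89 in U87 10 Gy (adjusted p = 5.68e-09). PLOD2, which acts on the telopeptides, was at -0.95 and -0.87 (-0.91 ± 0.03, adjusted p = 8.61e-09, 1.88-fold lower) and at -1.05 and -0.97 (-1.01 ± 0.03, adjusted p = 2.58e-09, 2.02-fold lower). With Si306, PLOD2 rose by 0.70 and 0.48 (adjusted p = 4.48e-08 and 7.62e-07), and PLOD1 fell by 0.25 and 0.28, which were -0.01 and -0.09 under median centring. PLOD2 kept its sign in all 4 configurations, but its proton values were -0.53 and -0.70 under median centring. SERPINH1, the chaperone HSP47 of procollagen, rose by 0.66 and 0.59 under protons (adjusted p = 4.13e-08 and 7.04e-08), and was at 0.07 and -0.00 with Si306. MIA3, which loads procollagen into carriers at the endoplasmic reticulum, fell most with Si306, by 0.46 and 0.37, and was at -0.32 and -0.25 under median centring.

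Among 14 genes of procollagen processing and cross-linking, 12 were tested. Of these, 6 rose and 1 fell in U87 2 Gy, 5 and 1 in U87 10 Gy, 5 and 1 with Si306 + 2 Gy, and 5 and 0 with Si306 + 10 Gy. Among the 6 rises in U87 2 Gy, ADAMTS3 (0.12) was above background in neither channel of any proton array. LOX, the main lysyl oxidase of fibrillar collagen, had ratios within 0.07 of 0 on all 4 proton arrays with loess, and means of 0.34 and 0.33 under median centring. With Si306 + 2 Gy it was at 1.16 and 1.17 (1.17 ± 0.03, adjusted p = 9.79e-10, 2.25-fold) and with Si306 + 10 Gy at 0.54 and 0.54 (adjusted p = 1.94e-07), and the difference between the doses was -0.62 ± 0.05 (adjusted p = 1.05e-05). LOXL2, a related oxidase that acts on type IV collagen, led in U87 2 Gy with 0.59 (adjusted p = 6.42e-08), and SPARC, a collagen-binding matrix protein, in U87 10 Gy with 0.59 (adjusted p = 6.46e-08). LOXL3 fell by 0.24 and 0.25 under protons but turned to 0.14 and 0.06 under median centring. ADAMTS14, which removes amino propeptides, was the member that fell with Si306 + 2 Gy, by 0.10 (adjusted p = 0.0475, and -1.003 under median centring), with its control not above background.

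The receptors that bind collagen were 9, all tested. Of these, 5 rose and 2 fell in U87 2 Gy, 4 and 2 in U87 10 Gy, 6 and 3 with Si306 + 2 Gy, and 4 and 3 with Si306 + 10 Gy. The discoidin domain receptors are kinases that collagen activates. DDR1 was at 0.65 and 0.59 in U87 2 Gy (0.62 ± 0.03, adjusted p = 3.37e-07) and at 0.37 on the 1 usable array of U87 10 Gy, for which limma takes the spread from the other configurations (adjusted p = 0.000114). DDR2 was at -0.50 and -0.42 (adjusted p = 9.4e-07) and at -0.61 and -0.65 (adjusted p = 7.48e-08), which under median centring were -0.14 and -0.36. ITGB1, the beta 1 chain of the collagen-binding integrins, rose by 0.32 and 0.39 under protons (adjusted p = 1.21e-05 and 2.09e-06). It fell by 0.34 and 0.39 with Si306, turning to 0.67 and 0.33 under median centring. ITGA2, an alpha chain that pairs with it, fell by 0.36 and 0.25 with Si306 (adjusted p = 4.85e-05 and 0.000923), and was at -0.66 and -0.39 under median centring. For MRC2, which takes up collagen, the control was not above background on any array, nor was the treated RNA on the Si306 slide, and no value is given, although MRC2 is among the receptors counted as rises in all 4 configurations. The control of ITGA11 was not above background on any array of the Si306 slide, nor that of DDR2 with Si306 + 2 Gy. Both are among the rises counted there.

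**Figure D5:**
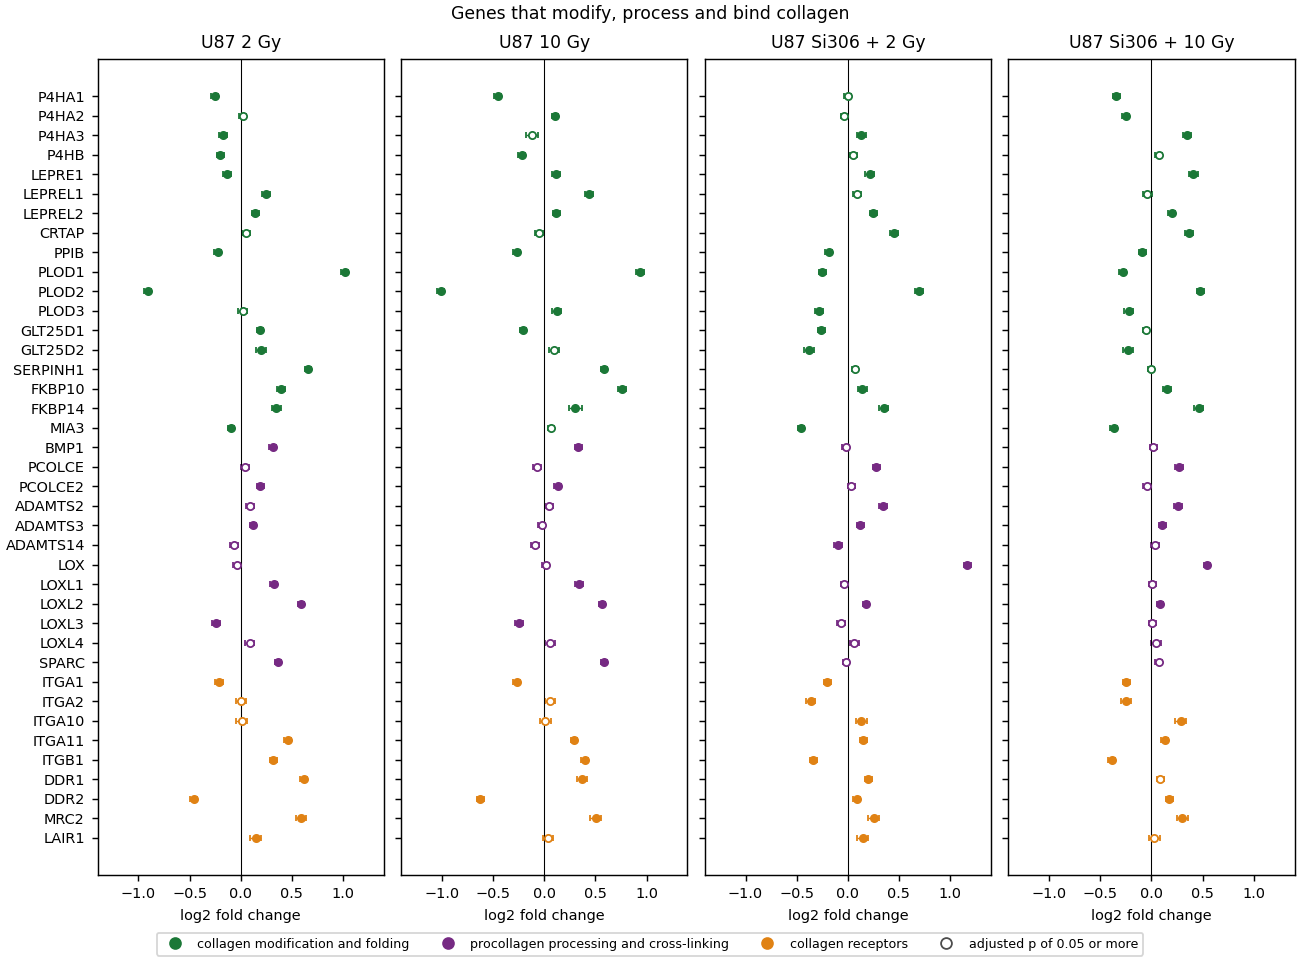
Log2 fold change (x axis, mean ± SE over 2 arrays, 1 for DDR1, P4HA3 and FKBP14 in U87 10 Gy) of the tested genes of collagen modification and folding, procollagen processing and cross-linking, and collagen receptors (y axis) in the 4 configurations, with open symbols where the adjusted p was 0.05 or more. PLOD1 and PLOD2 lie farthest apart under protons, and LOX lies farthest to the right with Si306 + 2 Gy.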

How the data were processed

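Arrays were of Agilent design 014850, read with Feature Extraction 9.5.3.1, and positions are on build hg17, per the file headers. For each spot the authors deposited the mean intensity of both dyes, local background values, and their software's log10 ratio, already background-subtracted and dye-normalized, with decimal commas; the series matrix holds the same log10 ratio rounded (largest difference 0.00500). Spots marked as outliers, 3.10% to 5.98% of a scan, were removed. Intensities were then corrected with normexp (offset 50), and log2 ratios normalized by loess within each scan, with control spots at weight 0. Of 24 scans, 2 had a label that contradicts their array and were not used. The others were averaged to 8 arrays, where the design had foreseen 6 replicates. A probe was kept if, in 1 configuration or more, either dye was well above background on 2/3 of its arrays (30316 probes). The brightest probe stood for each of 22847 gene names. Testing used limma 3.58.1 (R 4.3.3), all configurations in 1 fit, with Benjamini-Hochberg adjustment, and was tested on simulated data. Levels per channel were taken after loess and Aquantile scaling. A separate-channel model was not used, since its dye term would rest on the comparison between slides.

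Named members were those at 2-fold, the 4 largest rises and falls in each configuration, and the main chains of types I, III, IV, V, VI and XVIII; in the lists, the largest rise and fall. Other probes of named members are given where they differ in sign or by over 0.5 and both channels were above background, and in some other cases. The members, lists and rules were chosen with earlier results of these data known. No collagen spot was saturated, and the number of arrays limits the precision.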

Additional observations from a re-analysis of the deposited data

Results flagged for a closer look

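The tested collagens named by rule were 18 in number and picked in part for the size of their change. By the test of the difference itself in the limma fit, 7 differed between U87 10 Gy and U87 2 Gy. Between Si306 + 10 Gy and Si306 + 2 Gy, with the same Si306 concentration, 10 differed. Of all genes, 21.1% and 22.7% did. Between U87 10 Gy and U87 2 Gy, the difference was -0.31 for COL1A1 (adjusted p = 0.000713), 0.30 for COL1A2 (0.000905), 0.28 for COL4A6 (0.0029), 0.28 for COL5A2 (0.0146), 0.26 for COL8A1 (0.0147), 0.17 for COL7A1 (0.0201) and -0.16 for COL27A1 (0.0423). Between the arrays labelled Si306 + 10 Gy and Si306 + 2 Gy, it was 0.67 for COL7A1 (adjusted p = 6.16e-06), 0.42 for COL5A1 (0.000192), -0.33 for COL14A1 (0.0013), 0.32 for COL27A1 (0.00136), 0.26 for COL6A1 (0.00454), 0.28 for COL6A2 (0.00607), 0.22 for COL8A2 (0.014), -0.25 for COL8A1 (0.0158), -0.16 for COL1A2 (0.0218) and 0.19 for COL4A6 (0.0229). The second COL14A1 probe was at 0.26 with Si306 + 2 Gy and 0.33 with Si306 + 10 Gy, and was not lower at 10 Gy. Under median centring, as differences from the median of all genes, COL6A1 with Si306 turned to -0.03 and COL27A1 was at 0.08. With 1 array left out, the call was lost in at least 1 such fit for COL5A2, COL7A1, COL8A1 and COL27A1 between the proton doses. Between Si306 + 10 Gy and Si306 + 2 Gy it was lost for COL1A2, COL4A6, COL8A1 and COL8A2.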

How the results depend on the processing

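With 2 arrays for each configuration on 1 slide for each treatment, and no dye swap, the cause of the changes below was not tested. Of all values of named collagens under the alternatives, 1877 kept direction and side of the threshold, 113 lost the call, 62 gained it, 55 moved and 38 reversed.

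With the median of each array's log ratios set to 0 and no loess, 27 collagens passed in U87 10 Gy in place of 15, where 82% of all genes passed in place of 57.5%. The members at 2-fold were 3 in U87 2 Gy, 6 with Si306 + 2 Gy and 4 with Si306 + 10 Gy. Between the proton doses 3 differed, and between Si306 + 10 Gy and Si306 + 2 Gy 22 did. The values that changed sign follow as the centring leaves them, with the median of all genes at 0.27, 0.23, 0.44 and 0.26 in the 4 configurations. For the difference between Si306 + 10 Gy and Si306 + 2 Gy that median was -0.13. In U87 2 Gy they were 0.10 for COL14A1, -0.40 for COL18A1, 0.53 for COL1A2, -0.35 for COL3A1, 0.24 for COL4A6, 0.25 for COL5A2 and 0.37 for COL8A1. In U87 10 Gy they were 0.042 for COL14A1, -0.29 for COL18A1, -0.29 for COL3A1, 0.44 for COL5A2 and 0.50 for COL6A3. With Si306 + 2 Gy they were 1.22 for COL18A1, -0.47 for COL21A1, 0.36 for COL27A1, 0.73 for COL4A1, 0.87 for COL4A2, 0.38 for COL5A1 and 0.62 for COL6A1. With Si306 + 10 Gy they were 0.18 for COL14A1, 0.76 for COL18A1, -0.21 for COL21A1, 0.30 for COL27A1, 0.46 for COL4A1, 0.54 for COL4A2, 0.47 for COL5A1, 0.46 for COL6A1 and 0.29 for COL7A1. Between Si306 + 10 Gy and Si306 + 2 Gy they were 0.26 for COL21A1, -0.054 for COL27A1, -0.27 for COL4A1, -0.33 for COL4A2 and -0.16 for COL6A1.

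The scanner software's ratio and the series matrix both put 2 members at 2-fold in U87 2 Gy, 5 with Si306 + 2 Gy and 2 with Si306 + 10 Gy. With a curve on GC content removed, 0 reached it in U87 2 Gy and 1 in U87 10 Gy, and with the mean of a gene's probes 1 in U87 10 Gy. That mean gave 0.15 for COL5A2 in U87 10 Gy, 0.15 for COL14A1 with Si306 + 10 Gy and -0.38 for COL6A2 between proton doses, which sets 2 probes at 10 Gy against 1 at 2 Gy. With the contradicting scans kept, 2 reached 2-fold in U87 2 Gy and 0 differed between proton doses by limma (also 0 at an unadjusted p of 0.05, against 12 as reported). With each labelled replicate separate, 22 differed between Si306 + 10 Gy and Si306 + 2 Gy. In an alternative chosen after seeing the data, each slide on its own, COL5A2 was at 0.25 and 0.50 under protons, where another probe stood for it.

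Leaving out 1 array at a time, 13 to 20 collagens passed in U87 2 Gy (47.4% to 56.8% of all genes), 12 to 15 in U87 10 Gy (43.4% to 59.5%), 19 to 25 with Si306 + 2 Gy (52.9% to 68.3%) and 18 to 23 with Si306 + 10 Gy (47.2% to 64.5%). Between proton doses 5 to 9 differed (11.6% to 19.8% of all genes), with 5 without array 2 of U87 10 Gy. Between Si306 doses 8 to 15 differed (10.9% to 25.1%), with 9 without either array of Si306 + 2 Gy and 8 without either array of Si306 + 10 Gy. The replicate numbers did not pair the scans (correlations of deviations from -0.0843 to 0.0863). With the array as a block over scans (replicate block, correlation 0.507), 20, 17, 26 and 25 collagens passed in the 4 configurations, and 12 and 19 differed between doses.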
